A study of Mus musculus with 25 samples.

Results

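The 57 genes described here are transcribed as cells copy their DNA and divide: 27 genes of S phase, from Mcm2 to Ccne2, and 30 genes of G2 and mitosis, from Cenpa to Gtse1. They were given as a list of symbols, drawn up with earlier results of these data known, and all 57 were found by their Ensembl identifier among the 55385 genes of the RNA-seq files and passed the filter on low counts, which 15247 genes passed. The data were 25 bulk libraries from 5 mouse melanoma lines, each with 5 biological replicates, taken from untreated cultures at 50% confluency and at most 3 passages. WT31, B16F10 luc2 and RET formed the HIM-melanoma group, of high (WT31) or intermediate efficiency of liver colonization. D4M and HCmel12 formed the LM-melanoma group, of low efficiency. WT31 carries an Nras Q61K transgene under the tyrosinase promoter and lacks INK4a (INK4a-/-). B16F10 luc2 is a purchased line with a luciferase gene and mutations that include Trp53. RET came from mice with a RET transgene under the metallothionein-I promoter. D4M came from mice whose engineered alleles include Tyr::CreER and BrafCA, in which the Cre is active in the melanocyte lineage. HCmel12 came from a primary melanoma of HGF-CDK4(R24C) mice, whose Cdk4 does not respond to its INK4 inhibitors. Every group is 1 established line. D4M was grown in another basal medium and with less serum than the others, and the medium of HCmel12 held supplements of its own, so line, genotype and medium cannot be told apart here.

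Each library held 24199083 to 25843286 estimated counts. Levels are given as CPM, counts per 1000000 counts, after scaling by trimmed means (TMM). The S phase genes took 0.287% to 0.572% of a library's counts and the G2 and mitosis genes 0.215% to 0.556%. Of the 7 melanocyte markers, none was under 1 CPM throughout in WT31, B16F10 luc2, RET or HCmel12, and their summed level ranged from 12026 to 30206 CPM there, against 6.54 to 59.6 CPM in D4M, where Tyr stayed under 1 CPM in every library. The 10 markers of immune, endothelial and epithelial cells summed to at most 1.87 CPM. The part of the melanocyte level of D4M in its values below was not tested.

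In the mammalian cell cycle, E2F factors switch on a wave of genes at the entry into S phase: the Mcm2 to Mcm7 helicase, which is loaded on origins and unwinds DNA, the sliding clamp Pcna and the enzymes that make deoxynucleotides. A later wave, driven through the MuvB complex with B-Myb and FoxM1, delivers cyclin B, Cdk1, the mitotic kinases and the motors and anchors of the spindle. In quiescence and early G1, before either wave, the DREAM complex keeps both silent, at E2F elements in the first and at the cell cycle genes homology region (CHR) in the second. In bulk RNA, more cells in a phase and more RNA per cell in that phase cannot be told apart.

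The promoters show the letters that set the lists apart. RefSeq promoters of GRCm38.p6, 250 bases before to 50 after the start, were matched by symbol for 49 members, 22 of S phase and 27 of G2 and mitosis. An E2F-type motif (TTTCCCGC, TTTGGCGC, TTTCGCGC or TTTGCCGC, on either strand, overlaps counted) was found in 8 of 22 S phase promoters (36.4%) and in 1 of 27 of the other list (3.70%), against 2.60% of all 27025 promoters and 4.53% of those of tested genes. The CHR letters (TTTGAA or TTTAAA, on either strand) were found in 23 of 27 G2 and mitosis promoters (85.2%) and in 7 of 22 S phase promoters (31.8%), against 30.6% of all promoters and 22.97% of those of tested genes. CCAAT, the letters that NF-Y binds, was in 81.8% and 81.5% of the promoters of the lists, against 41.1% of all. These are matches of letters, not sites shown to be bound.

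Of the S phase members, Mcm5 (chr8:75109339-75109528, plus strand), Mcm6 (chr1:128359686-128359875, minus strand) and Cdc6 (chr11:98907981-98908170, plus strand) are shown with the E2F letters in capitals (2 overlapping matches, on opposite strands, make the long runs). Matches begin 153 and 149 bases before the start in Mcm5, 110, 106 and 47 before it in Mcm6 and 138 before it in Cdc6. Each window runs 5′ to 3′ on the gene's strand, from 170 bases before to 20 after the start.
Mcm5: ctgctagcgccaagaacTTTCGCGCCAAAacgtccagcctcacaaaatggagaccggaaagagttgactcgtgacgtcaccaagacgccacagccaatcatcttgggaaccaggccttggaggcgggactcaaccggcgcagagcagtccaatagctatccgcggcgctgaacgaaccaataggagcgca
Mcm6: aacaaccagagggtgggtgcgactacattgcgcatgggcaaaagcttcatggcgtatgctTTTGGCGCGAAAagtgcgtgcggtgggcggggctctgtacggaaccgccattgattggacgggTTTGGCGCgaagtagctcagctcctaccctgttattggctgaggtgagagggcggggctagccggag
Cdc6: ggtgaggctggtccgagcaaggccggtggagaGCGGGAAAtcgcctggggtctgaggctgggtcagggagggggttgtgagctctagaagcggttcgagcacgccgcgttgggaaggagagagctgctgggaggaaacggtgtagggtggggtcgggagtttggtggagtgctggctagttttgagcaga

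Of the G2 and mitosis members, Cdc20 (chr4:118437324-118437513, minus strand), Ccnb1 (chr13:100786467-100786656, minus strand), Cdk1 (chr10:69352893-69353082, minus strand) and Plk1 (chr7:122159265-122159454, plus strand) are shown over the same window with the CHR letters in capitals, 18 bases before the start in Cdc20, 42 in Ccnb1, 71 and 15 in Cdk1 and 89 and 29 in Plk1. The 4 genes encode parts of the mitotic switch whose levels are compared further on.
Cdc20: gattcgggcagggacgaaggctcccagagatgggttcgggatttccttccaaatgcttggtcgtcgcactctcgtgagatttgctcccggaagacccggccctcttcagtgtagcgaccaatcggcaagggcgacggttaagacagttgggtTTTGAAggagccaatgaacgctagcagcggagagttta
Ccnb1: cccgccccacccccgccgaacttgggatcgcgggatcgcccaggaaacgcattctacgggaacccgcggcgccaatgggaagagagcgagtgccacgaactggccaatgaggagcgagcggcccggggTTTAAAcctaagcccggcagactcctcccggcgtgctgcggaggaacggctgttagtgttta
Cdk1: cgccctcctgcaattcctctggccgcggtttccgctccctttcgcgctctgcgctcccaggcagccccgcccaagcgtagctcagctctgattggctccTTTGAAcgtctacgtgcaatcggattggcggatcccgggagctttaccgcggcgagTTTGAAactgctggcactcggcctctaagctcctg
Plk1: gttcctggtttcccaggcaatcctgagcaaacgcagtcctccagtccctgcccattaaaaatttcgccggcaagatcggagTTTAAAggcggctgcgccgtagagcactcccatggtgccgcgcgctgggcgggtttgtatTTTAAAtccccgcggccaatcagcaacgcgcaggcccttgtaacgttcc

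In these genes, 3 libraries stood apart from their line. In WT31 replicate 5, all 30 G2 and mitosis genes had the lowest value of the line, a median of -1.19 (log2) from the mean of the other 4 libraries, and so did 24 of 27 S phase genes, with a median of -0.39. Of all tested genes, 23.4% were lowest there. Its melanocyte markers summed to 23722 CPM, the highest of the line (median 18882), with 6 of 7 markers highest in it. In HCmel12 replicate 4, 25 of 27 S phase genes were lowest, with a median of -0.49, and 11 of 30 G2 and mitosis genes (36.7%), the latter near the 29.97% of all tested genes that were lowest there. In HCmel12 replicate 1, 20 of 27 S phase genes were highest (median 0.33) while 16 of 30 G2 and mitosis genes were lowest (median -0.27), while of all tested genes 14.9% were highest and 16.2% lowest. Values that rest on WT31 replicate 5 or HCmel12 replicate 4 are given with and without them below. The melanocyte markers' part in the low values was not tested.

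Members of both lists differed among lines. By limma's F test on voom-transformed counts, adjusted over all 15247 genes, 25 of 27 S phase and 21 of 30 G2 and mitosis genes differed among the 5 lines, against 96.9% of all genes tested. Clspn, which passes on the replication checkpoint signal, and Pola1, the catalytic subunit of the primase polymerase, did not pass in the first list. In the second, Cenpa, Ccnb2, Hmmr, Ccnb1, Top2a, Mki67, Bub1, Tpx2 and Kif11 did not. Without WT31 replicate 5, 55 of the 57 members passed in place of 46, so most of these misses rest on 1 library. The range between the highest and the lowest line mean had a median of 0.98 (log2) over the S phase genes, with 11 of 27 (40.7%) at 1 or above, and of 0.62 over the G2 and mitosis genes, with 5 of 30 (16.7%). Over all tested genes it was 1.41, with 62.95% at 1 or above, and over the 8052 genes at the members' level 0.89, with 42.96%, close to the share of the S phase genes. The pooled SD within lines had a median of 0.17 for S phase and 0.30 for G2 and mitosis genes, against 0.12 for the genes of like level. These medians were 0.15 and 0.18 without WT31 replicate 5. Per length, as mean TPM over the line means, the most abundant members were Pcna (451), Ube2c (434), Cdk1 (321), Cdca3 (279) and Rrm2 (244), and the least was the helicase Brip1 (9.43).

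**Figure D1:**
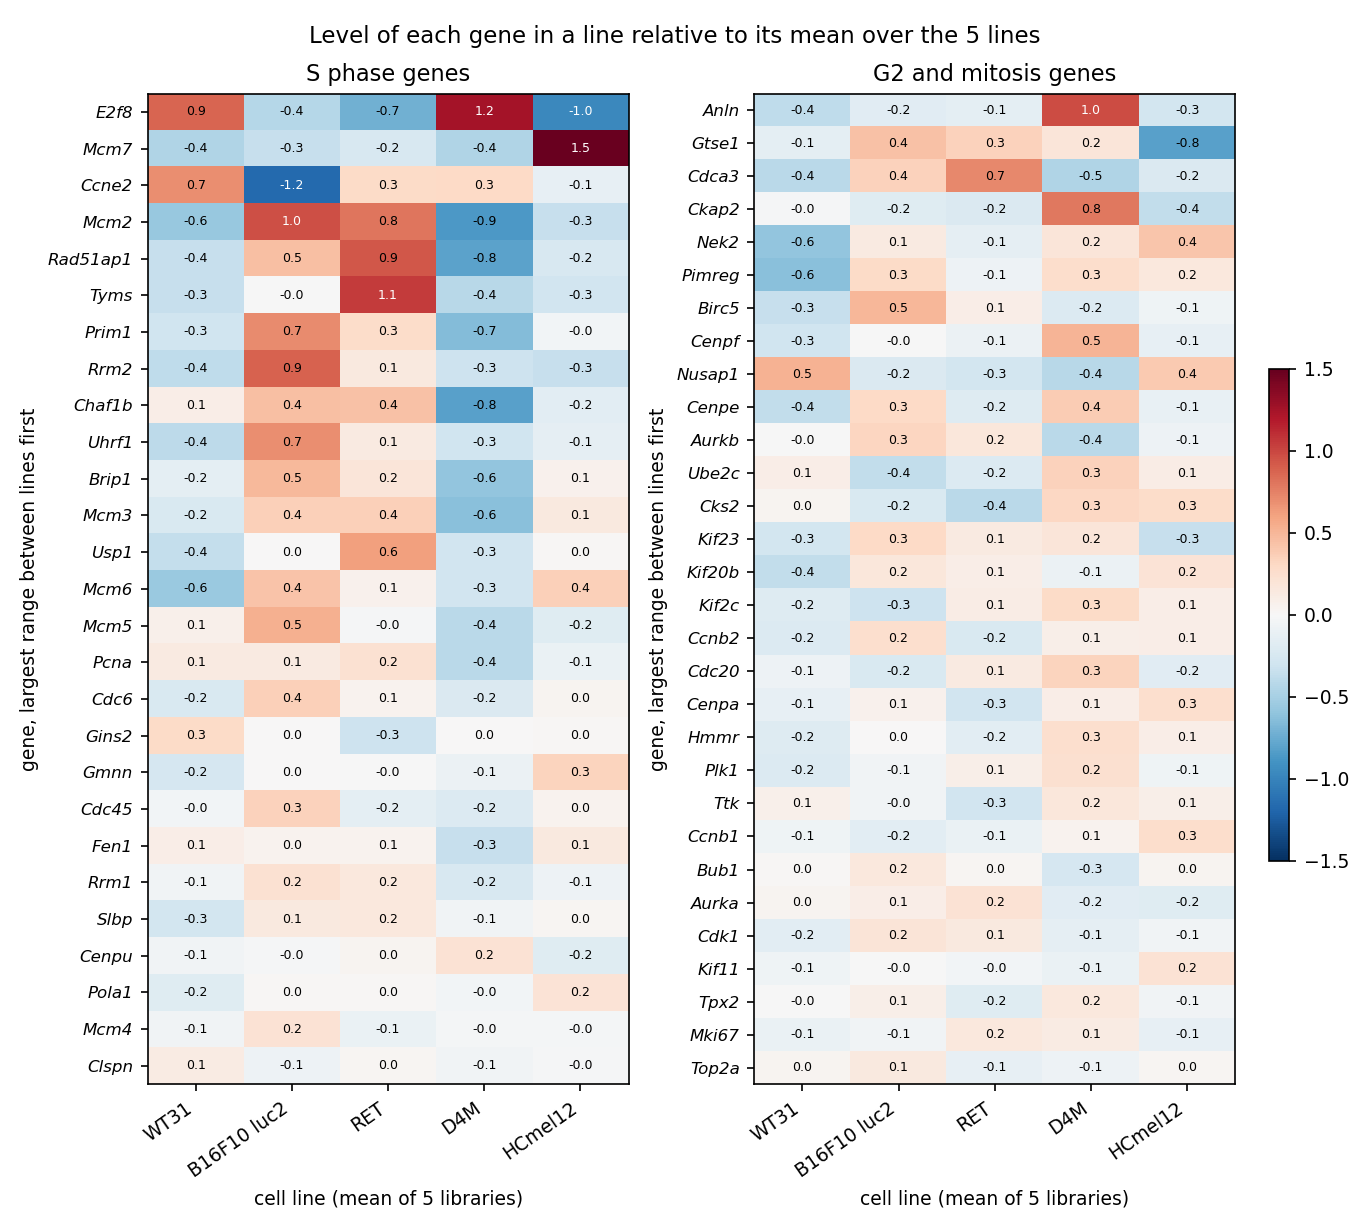
Log2 of the mean CPM of each member in each line, minus its mean over the 5 lines (colour and number), for the 27 S phase genes (left) and the 30 G2 and mitosis genes (right). Counted by mean CPM, B16F10 luc2 is highest for 13 S phase genes and D4M lowest for 12. By the same count D4M is highest for 12 G2 and mitosis genes and WT31 lowest for 10. By mean log2 CPM, which is not shown, WT31 is lowest for more of them, such as Ccnb2 and Cdca3.

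The 6 subunits of the replicative helicase did not move as a unit between lines. Mcm2 (chr6:88883474-88898780 of GRCm38.p6) was high in the libraries of B16F10 luc2 (652, 643, 632, 664 and 673 CPM) and of RET (588, 603, 548, 594 and 587). It was low in WT31 (236, 219, 248, 232 and 190.3), D4M (177, 181, 183, 184 and 188) and HCmel12 (307, 259.98, 280.02, 199 and 270.4). No library of the first 2 lines overlapped with any of the other 3, and D4M lay below every library of WT31 and HCmel12. B16F10 luc2 minus D4M was a log2 fold change of 1.83 ± 0.08 (SE), adjusted p = 2.36e-17, and RET minus D4M one of 1.67 ± 0.08 (SE), adjusted p = 1.55e-16. For each member, the pair with the highest and the lowest mean log2 CPM was picked by these means, so its p is that of a chosen pair. By mean CPM, the lowest line of Mki67, Ccnb2 and Cdca3 was another than in the pair tested.

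Mcm7 (chr5:138164583-138172422), in the same ring, had another pattern. Its 5 libraries in HCmel12 held 927, 798, 750.03, 666 and 735 CPM, while the other 20 lay between 163 and 242. HCmel12 stood above every library of every other line, and the other 4 line means ran from 204 to 235. Against WT31 the log2 fold change was 1.93 ± 0.07 (SE), adjusted p = 8.76e-18, and against RET, the next highest, it was 1.71 ± 0.07 (SE), adjusted p = 1.25e-16. Of the 31-base stretches of Mcm7 transcripts, 33.4% also occur in transcripts of other genes, so part of its counts may rest on how reads were shared out, which was not tested. Over 20% were shared in 11 of the 57 members, with the most in Fen1 (79.6%) and Gins2 (66.2%), and the median member shared 4.58%.

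Genes beside Mcm7 were high in HCmel12 too. Of 14 other tested genes within 150 kb, 13 were at least 1.5 (log2) above the median line there, all but Gpc2, with a median of 2.08, and of 26 within 500 kb, 24 were at least 1 above it, with a median of 2.04. Over 3 Mb to either side, 69 of 115 genes were, with a median of 1.26. In the other 4 lines the medians within 500 kb lay between -0.30 and 0.14. The region was looked at after the values of Mcm7 were seen. DNA copy number was not measured and its part was not tested.

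**Figure D2:**
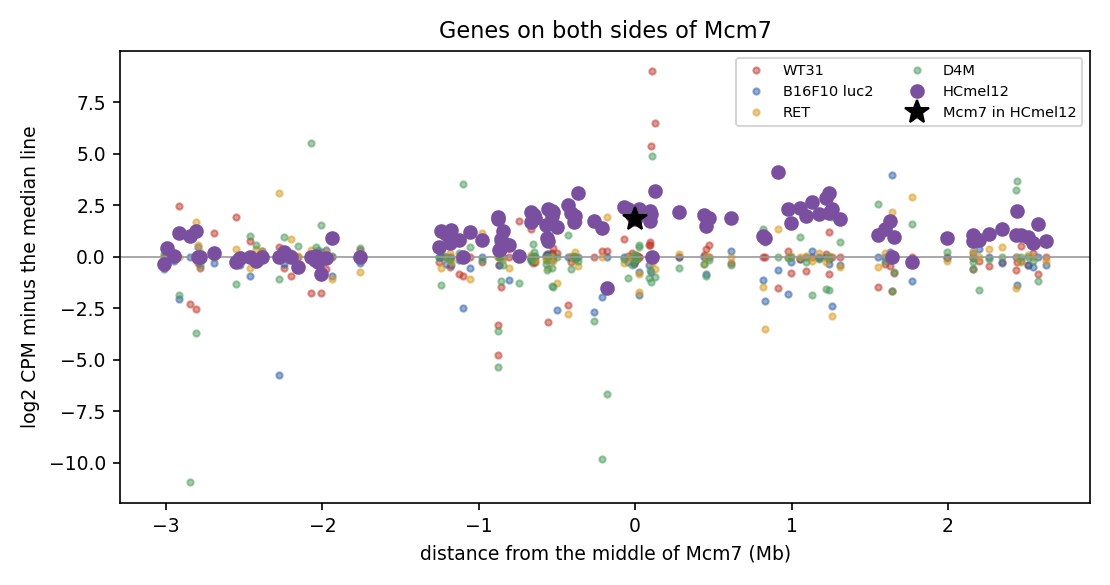
Mean log2 CPM of each tested gene within 3 Mb of Mcm7, minus that gene's median line, against distance from the middle of Mcm7 in Mb; large points are HCmel12, small points the other lines and the star is Mcm7 in HCmel12. In HCmel12, 24 of the 26 other genes within 500 kb lie at 1 or above.

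Relative to one another, the subunits were compared per length, in TPM (transcripts per 1000000, scaled by length), over 24 libraries. Mcm7 made up 43.6% ± 2.75 (SD, n = 5) of the summed TPM of the 6 subunits in HCmel12 and 12.8% to 21.9%, as line means, elsewhere. Mcm2 made up 25.4% ± 0.21 in B16F10 luc2 and 26.2% ± 0.46 in RET, but 14.5% ± 0.25 in WT31, 13.0% ± 0.79 in D4M (n = 4) and 9.58% ± 0.49 in HCmel12. The share of 1 subunit falls where another rises, so these shares are not independent. Mcm4 had a small range of CPM: 225 ± 8.47 (SD, n = 5) in B16F10 luc2 and between 181 and 191 as means of the other lines, with overlapping libraries. Mcm5 was 301 ± 15.6 CPM in B16F10 luc2, above every library of every other line, and 157 ± 11.7 in D4M, a difference of 0.94 ± 0.10 (SE), adjusted p = 4.62e-09.

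**Figure D3:**
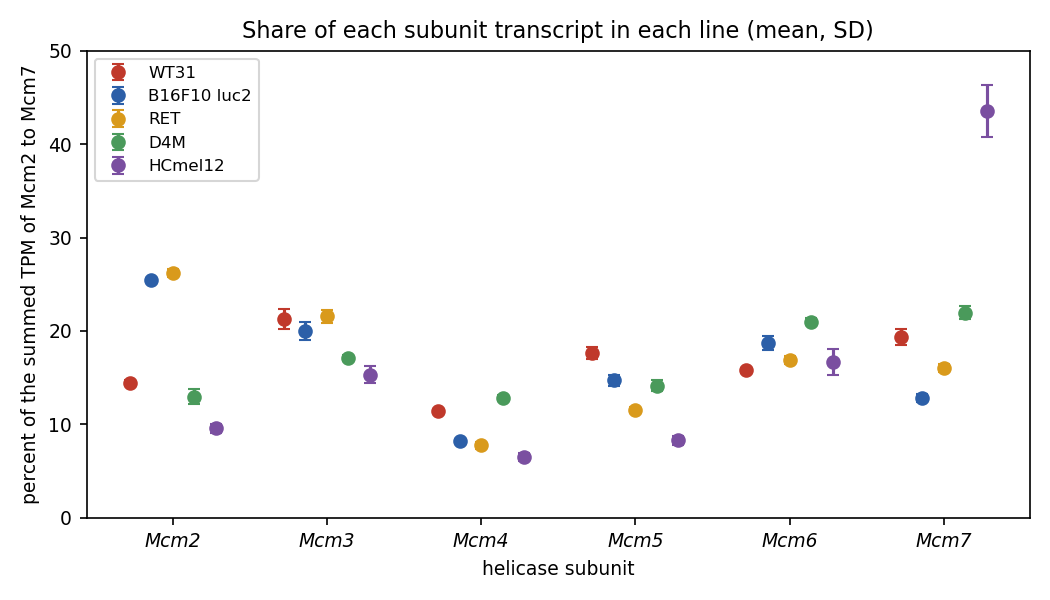
Share of each of Mcm2 to Mcm7 in the summed TPM of the 6, in percent, by line; points are means and bars SD over libraries (4 for D4M, 5 for each other line). Mcm7 stands at 43.6% in HCmel12, with libraries from 40.9% to 48.2%.

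Pcna, the sliding clamp that tethers polymerases to DNA, was low in D4M. Its 5 libraries there held 312, 308, 316, 308 and 329 CPM, against 486, 490.4, 450.5, 486 and 531 in RET, 457, 463, 445, 449.6 and 481 in B16F10 luc2 and 497, 436, 507, 466 and 383 in WT31. HCmel12 spread over both, with 458, 403, 431, 291 and 366, the lowest in replicate 4. D4M lay below all libraries of the HIM lines, and RET minus D4M was 0.63 ± 0.09 (SE), adjusted p = 2.26e-07. Of Pcna, 23.3% of the 31-base stretches are shared with other genes. Clspn lay between 55.0 and 63.1 CPM as line means, the smallest range of all 57 genes, and WT31 minus B16F10 luc2 was 0.17 ± 0.14 (SE), adjusted p = 0.262. Without WT31 replicate 5 that difference of Clspn was 0.31 and passed the test, as did 0.34 with log2(TPM + 1).

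Of the enzymes that supply deoxynucleotides, Tyms was highest in RET and both subunits of ribonucleotide reductase in B16F10 luc2. Tyms, which makes thymidylate, held 204, 193, 182, 209.5 and 207 CPM in RET and between 47.8 and 101 in the 20 libraries of the other lines. RET minus D4M was 1.47 ± 0.12 (SE), adjusted p = 8.44e-12. The 3 other tested genes within 150 kb of Tyms (Hadha, Hadhb and Garem2) were all at least 0.5 (log2) above their median line in RET, with a median of 1.04, and the part of the locus was not tested. Beside Mcm2, 1 of 5 other genes (Tpra1) was so in B16F10 luc2 and in RET, with medians of 0.03 and 0.07. Within 500 kb of Mcm2, the 14 other tested genes had medians of 0.63 in B16F10 luc2, 0.34 in RET and -1.43 in D4M. Mcm2 itself lay at 1.32, 1.16 and -0.51 there, and the part of its locus was not tested. Over all members, 11 points of a member in a line lay at least 1 from the member's median line, and in 4 or 5 of these, by the window taken (250 to 1000 kb), the median of the neighbours lay at least 0.5 to the same side. Over all points, r between members and their neighbours was 0.43, 0.40 and 0.34 at 250, 500 and 1000 kb. For all genes with neighbours it was 0.25, 0.20 and 0.16. Rrm2, the regulated subunit of ribonucleotide reductase, was highest in B16F10 luc2 (616, 609, 549.7, 562 and 656 CPM), then in RET (331, 381, 362, 359 and 363). It was lower in WT31 (284, 258, 266, 265 and 175), D4M (259, 265, 236, 276 and 279) and HCmel12 (302, 277, 318, 150.03 and 235), whose libraries overlapped with one another. All libraries of B16F10 luc2 and of RET lay apart from each other and above the rest, and B16F10 luc2 minus WT31 was 1.28 ± 0.14 (SE), adjusted p = 6.42e-09. Rrm1, its large subunit, moved less, from 354 ± 20.3 CPM (SD, n = 5) in D4M to 490.2 ± 34.5 in B16F10 luc2, a log2 fold change of 0.47 ± 0.10 (SE), adjusted p = 0.000207, and its B16F10 luc2 libraries overlapped with RET and WT31.

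Of the genes that license origins and limit licensing, Cdc6, a loader of the helicase, was lowest in WT31 and highest in B16F10 luc2, with line means of 52.7 ± 4.57 and 79.1 ± 5.41 CPM (SD, n = 5) and a difference of 0.59 ± 0.12 (SE), adjusted p = 5.81e-05. The 5 WT31 and the 5 B16F10 luc2 libraries did not overlap. Gmnn, the inhibitor of the licensing factor Cdt1, was 32.4 ± 5.52 CPM in HCmel12 and 21.7 ± 2.79 in WT31, a difference of 0.57 ± 0.10 (SE), adjusted p = 1.26e-05. Slbp, which binds the stem-loop of histone mRNAs, was between 57.7 CPM in WT31 and 78.1 in RET, a difference of 0.44 ± 0.08 (SE), adjusted p = 3.1e-05.

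The transcriptional repressor E2f8 and the cyclin Ccne2 were the S phase members called lower in B16F10 luc2 than in D4M. For RET against D4M these were E2f8 and Gins2, a subunit of the helicase's GINS complex (-0.31 ± 0.06 (SE), adjusted p = 9.58e-05 by limma). Gins2 lies outside the rule for named genes and was picked after its value was seen. By mean TPM, Gins2 ran the other way, with 46.6 in RET and 42.6 in D4M. Of its 31-base stretches, 66.2% are shared with other genes. Ccne2 was at -0.006 for RET against D4M and not called. E2f8, which turns E2F targets down late in S phase, had the largest range of the 57 genes. It was highest in D4M (259, 241, 242, 276 and 249 CPM) and WT31 (149, 207, 202, 208 and 207). It was low in B16F10 luc2 (84.6, 77.2, 66.3, 74.6 and 92.8), RET (58.6, 81.6, 63.4, 60.2 and 59.3) and HCmel12 (65.00, 60.2, 66.2, 40.1 and 42.5). D4M lay above all libraries of WT31, which lay above all of the other 3 lines, and those overlapped with a neighbour in the order. D4M minus HCmel12 was 2.24 ± 0.13 (SE), adjusted p = 1.17e-14. The 5 other tested genes within 500 kb of E2f8 had a median of 2.06 (log2) above their median line in D4M, against 1.69 for E2f8, and their part was not tested.

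Ccne2, which activates Cdk2 at the entry into S phase, was lowest in B16F10 luc2, the line with the highest mean CPM for 13 of 27 S phase genes. Its libraries there held 24.2, 19.7, 19.8, 21.2 and 26.99 CPM, below every other library. WT31 held 92.6, 86.3, 90.6, 71.3 and 69.1, RET 52.6, 70.5, 59.3, 61.4 and 63.9, D4M 54.2, 67.6, 51.3, 66.1 and 70.8 and HCmel12 58.8, 51.8, 51.9, 32.2 and 36.9, and each of these overlapped with another of the 4. WT31 minus B16F10 luc2 was 1.87 ± 0.15 (SE), adjusted p = 1.38e-11.

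Outside the rule for named genes, Chaf1b, a subunit of the chaperone that lays histones on new DNA, and Uhrf1, which maintains DNA methylation, were picked after their values were seen. Chaf1b was 36.7 ± 3.28 CPM (SD, n = 5) in D4M and 87.99 ± 7.74 in B16F10 luc2. Uhrf1 was 413 ± 28.3 CPM in B16F10 luc2 and 193 ± 17.4 in WT31.

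Over pairs of lines, B16F10 luc2 and RET had higher S phase genes than WT31 or D4M for most members. Higher and lower are said of the first line of a pair against the second. Beside each count stands the percentage of all tested genes called in that direction. For B16F10 luc2 against D4M, 19 of 27 were higher (38.8%) and 2 lower (38.9%), with a median log2 fold change of 0.47. For RET against D4M, 18 were higher (38.8%) and 2 lower (38.3%), with a median of 0.38. These 2 comparisons share the D4M libraries. The share of members called higher was above the background in both.

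Against WT31 the direction was the same for these lines: for WT31 against B16F10 luc2, 3 were higher (36.4%) and 18 lower (36.4%), with a median of -0.36, and for WT31 against RET, 3 were higher (36.8%) and 16 lower (36.4%), with a median of -0.25. B16F10 luc2 and RET, the HIM lines nearest to each other in these genes, had 10 higher (25.2%) and 4 lower (26.2%) with a median of 0.02. Without WT31 replicate 5 and HCmel12 replicate 4, an alternative added after seeing the data, WT31 against RET had 6 higher (36.9%) and 14 lower (36.1%) with a median of -0.16. Over all genes, this alternative called between 54.6% and 79.4% per pair, against 51.5% to 77.7% with all libraries.

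HCmel12 lay between. For B16F10 luc2 against HCmel12, 16 were higher (35.3%) and 3 lower (33.8%), with a median of 0.27, and for RET against HCmel12, 12 were higher (34.0%) and 4 lower (33.3%), with a median of 0.23. Without the 2 libraries that stood apart these became 13 and 5 (0.15) and 11 and 8 (0.11), with no share of all genes by direction beside them. For WT31 against HCmel12, 6 were higher (36.1%) and 9 lower (34.3%), with a median of -0.08, which took the other sign (0.02) without WT31 replicate 5. For D4M against HCmel12, 3 were higher (36.8%) and 13 lower (35.7%), with a median of -0.24. For WT31 against D4M, 11 were higher (37.5%) and 4 lower (38.6%), with a median of 0.15; without WT31 replicate 5 they were 15 (37.2%) and 2 (37.7%), with a median of 0.25.

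Scaling moved some splits, and the counts of all genes with them. Where libraries were scaled by their size only, the median of all genes shifted by 0.225 for WT31 against D4M, 0.154 for B16F10 luc2 against D4M, 0.203 for RET against D4M and -0.177 for D4M against HCmel12. For WT31 against D4M, 16 S phase genes were then higher and 0 lower, in place of 11 and 4, while 48.1% of all tested genes were higher and 29.0% lower. With log2(TPM + 1) they were 14 and 0, against 46.1% and 26.4% of all genes. For D4M against HCmel12, 1 was higher (29.4%) and 21 lower (44.8%) with library size only. Relative to the median of all genes, the median of the S phase genes was 0.16 for WT31 against D4M and -0.24 for D4M against HCmel12 with either scaling of the counts. For WT31 against HCmel12, 6 were higher (42.2%) and 3 lower (24.6%) with log2(TPM + 1).

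Of the mitotic switch, Ccnb1, a cyclin B that activates Cdk1, was between 146 ± 14.7 CPM (SD, n = 5) in B16F10 luc2 and 195 ± 33.4 in HCmel12, and the libraries of these lines were 155, 160.1, 137, 124 and 151 and 159, 223, 233, 165 and 197. The lines overlapped by 1 library on each side, and the difference was 0.41 ± 0.16 (SE), adjusted p = 0.024; it did not pass on the TPM scale (0.35) or without B16F10 luc2 replicate 4 or HCmel12 replicate 2 or 3 (0.35 to 0.36). Its 31-base stretches are shared with other genes for 27.8%. Cdk1, the kinase that drives entry into mitosis, was 224 ± 14.95 CPM in B16F10 luc2 and 175 ± 43.6 in WT31. The difference between these lines was 0.40 ± 0.14 (SE), adjusted p = 0.0139, and without WT31 replicate 5, at 101 CPM, it was 0.21 and did not pass, nor did the 0.25 of the TPM scale; with HCmel12 replicate 4 left out as well, the 0.21 passed. Ccnb2, the other cyclin B, was 118 ± 10.4 CPM in B16F10 luc2 and 86.8 ± 35.4 in WT31, a difference of 0.57 ± 0.21 (SE), adjusted p = 0.0156, which was 0.27 and did not pass without WT31 replicate 5, nor at 0.44 on the TPM scale. With only these 2 lines fitted, neither Cdk1 (0.38) nor Ccnb2 (0.55) passed, at nearly unchanged differences.

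Among the mitotic kinases, Plk1 and the Aurora kinases had different orders of lines. Plk1, which acts from mitotic entry to exit, was highest in D4M (278, 243, 210.2, 246 and 222 CPM) and lowest in WT31 (203, 196, 174, 211 and 92.1), which overlapped by 1 library. D4M minus WT31 was 0.51 ± 0.16 (SE), adjusted p = 0.00631. The difference was 0.28 (log2) and passed without WT31 replicate 5, and with library size only (0.28) or on the TPM scale (0.19) the difference did not pass. Aurkb, the kinase of the chromosomal passenger complex, was low in D4M (86.6, 78.1, 83.2, 81.1 and 73.5 CPM) and high in B16F10 luc2 (126, 142, 134, 123 and 143) without overlap, and B16F10 luc2 minus D4M was 0.73 ± 0.14 (SE), adjusted p = 3.94e-05. Its partner Birc5 (survivin) was 186 ± 10.05 CPM in B16F10 luc2, above every other library, and 115 ± 8.36 in D4M and 104 ± 30.1 in WT31. B16F10 luc2 minus WT31 was 0.91 ± 0.14 (SE), adjusted p = 3.32e-06 for Birc5. Aurka, which matures the spindle poles, ran from 121 CPM in HCmel12 to 159 in RET as line means, a difference of 0.41 ± 0.14 (SE), adjusted p = 0.0138.

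Cdc20, which activates the anaphase-promoting complex, was 167, 176, 144, 167 and 142 CPM in D4M and 99.96, 113, 119, 99.04 and 108 in B16F10 luc2. These 2 lines did not overlap, with a difference of 0.56 ± 0.20 (SE), adjusted p = 0.0116, which did not pass with library size only (0.41) or on the TPM scale. WT31 spread over both, from 48.7 to 157. Cenpa, the histone H3 variant of centromeres, was 111 ± 15.2 CPM in HCmel12 and 76.4 ± 4.06 in RET, a difference of 0.53 ± 0.20 (SE), adjusted p = 0.0249, which did not pass on the TPM scale (0.46) or without HCmel12 replicate 5 (0.48), nor did its F test over the 5 lines.

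The usual markers of proliferation had the smallest ranges of their list. Top2a, which untangles replicated DNA, was 551 ± 86.02 CPM (SD, n = 5) in B16F10 luc2, 513 ± 127 in WT31, 508 ± 103 in HCmel12, 474 ± 35.9 in D4M and 457 ± 28.5 in RET. All 5 lines overlapped, and the largest difference, B16F10 luc2 minus RET, was 0.26 ± 0.14 (SE), adjusted p = 0.141; without WT31 replicate 5, which is in neither line but adds to the shared spread, the same 0.26 passed. It also passed at 0.42 with log2(TPM + 1) and at 0.25 with only these 2 lines fitted. Mki67, which coats mitotic chromosomes, was 378 ± 26.5 CPM in RET, 369.6 ± 30.9 in D4M, 327 ± 50.1 in B16F10 luc2, 315 ± 99.2 in WT31 and 311 ± 47.8 in HCmel12. Its largest difference, RET minus WT31, was 0.34 ± 0.17 (SE), adjusted p = 0.073, and it passed without WT31 replicate 1 (0.46) or 2 (0.40). It was 0.10 and did not pass without WT31 replicate 5.

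The genes with the largest ranges of the list were Anln, Gtse1, Cdca3 and Ckap2. Anln, a scaffold of the cleavage furrow, held 536, 553, 461, 562 and 567 CPM in D4M, above the highest of the other 20 libraries, which was 303. D4M minus WT31 was 1.44 ± 0.18 (SE), adjusted p = 7e-08. Ckap2, a microtubule-associated protein of the spindle, was also highest in D4M (109, 113, 93.4, 106 and 99.1 CPM), above every other library, and D4M minus HCmel12 was 1.17 ± 0.19 (SE), adjusted p = 6.09e-06. Both genes passed the test as higher in D4M against each of the other 4 lines. Gtse1, which binds microtubules and p53, was low in HCmel12 (54.3, 63.97, 82.5, 51.8 and 60.04 CPM) and high in B16F10 luc2 (142, 162, 139.7, 139 and 163) without overlap, a difference of 1.27 ± 0.16 (SE), adjusted p = 1.01e-07. Cdca3, which marks Wee1 for degradation, held 322, 309.99, 263, 298 and 292 CPM in RET, above every other library, with 211, 244, 259.96, 224 and 208 in B16F10 luc2 and 178, 142, 129, 167 and 61.1 in WT31. RET minus WT31 was 1.22 ± 0.17 (SE), adjusted p = 5.81e-07, and of 17 other genes within 150 kb of Cdca3, 9 were at least 0.5 above their median line in RET, with a median of 0.59. The part of the locus was not tested.

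Between 3 and 15 of the 30 G2 and mitosis genes were called per pair of lines. In WT31, 1 was higher and 11 lower than in B16F10 luc2 (36.4% and 36.4% of all tested genes; median -0.24), 3 and 9 than in RET (36.8% and 36.4%; median -0.23), 2 and 13 than in D4M (37.5% and 38.6%; median -0.33) and 1 and 7 than in HCmel12 (36.1% and 34.3%; median -0.17). The members lower in WT31 were 23.3% to 43.3% of the list, near or below the background, and those higher were far below it. These comparisons share WT31 replicate 5. Without it and HCmel12 replicate 4, the splits became 8 and 9 (median 0.01), 8 and 6 (median -0.02), 7 and 10 (median -0.08) and 4 and 3 (median -0.01). No share of all genes by direction stands beside these later splits, so they are not set against a background. Against B16F10 luc2, RET and D4M, the lower medians of WT31 rested on 1 of its 5 libraries. Against HCmel12, a library of each line was left out, so their parts are not separated.

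In B16F10 luc2, 2 were higher and 1 lower than in RET (25.2% and 26.2% of all tested genes; median 0.09), 5 and 7 than in D4M (38.8% and 38.9%; median -0.04) and 6 and 5 than in HCmel12 (35.3% and 33.8%; median 0.12). In RET, 3 were higher and 8 lower than in D4M (38.8% and 38.3%; median -0.16) and 4 and 5 than in HCmel12 (34.0% and 33.3%; median -0.04). In D4M, 7 were higher and 2 lower than in HCmel12 (36.8% and 35.7%; median 0.07). The share of the list was below the background in each of these. In fits without WT31 replicate 5, whose spread all lines share, the calls rose from 3 to 11 between B16F10 luc2 and RET (51.8% of all tested genes in that fit), from 11 to 19 between RET and D4M (77.5%), from 9 to 19 between RET and HCmel12 (67.8%) and from 9 to 17 between D4M and HCmel12 (72.9%). Without HCmel12 replicate 4 as well, D4M and HCmel12 split into 8 and 8 (37.0% and 35.9%), with a median of 0.02.

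The splits against D4M moved with the shift of all genes. With library size only, 4 were higher and 6 lower for WT31 against D4M (48.1% and 29.0% of all tested genes), 9 and 5 for B16F10 luc2 against D4M (45.3% and 33.4%; median 0.12), 8 and 4 for RET against D4M (47.3% and 31.3%; median 0.04) and 4 and 8 for D4M against HCmel12 (29.4% and 44.8%; median -0.11). Relative to the median of all genes, these medians were -0.32, -0.035, -0.167 and 0.064, within 0.001 of those of the TMM-scaled counts. With log2(TPM + 1) the splits were 5 and 4 (46.1% and 26.4%), 9 and 5 (40.7% and 32.4%; median 0.15, or 0.078 relative to all genes), 5 and 3 (6298 and 4803 of all 15247 genes) and 4 and 4 (30.7% and 36.4%). In the other pairs these scalings moved the median of all genes by 0.072 or less, except 0.106 for WT31 against HCmel12 with log2(TPM + 1). They split into 3 and 10 for WT31 against B16F10 luc2, 1 and 3 for WT31 against HCmel12 and 2 and 2 for B16F10 luc2 against RET with library size only, where 51.5% to 72.5% of all genes were called in either direction. With log2(TPM + 1) they split into 3 and 8 for WT31 against B16F10 luc2, 3 and 4 for WT31 against RET, 2 and 3 for WT31 against HCmel12, 3 and 0 for B16F10 luc2 against RET, 6 and 2 for B16F10 luc2 against HCmel12 and 4 and 3 for RET against HCmel12, against 45.2% to 69.2% of all genes called.

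A member was counted as commonly higher in HIM-melanoma where it was called higher in all 6 pairs of a HIM and an LM line. This held for 2 of 57 members, Pcna and Chaf1b, against 6.53% of all tested genes, and 0 members were commonly lower, against 6.40%. For Pcna the 6 log2 fold changes ran from 0.24 to 0.63, with a largest adjusted p of 0.0142 by limma, and for Chaf1b from 0.26 to 1.26, with a largest of 0.00878. Without WT31 replicate 5, 4 members were commonly higher and 0 lower (1006 and 961 of all 15476 genes). Without HCmel12 replicate 4 they were 1 and 0 (1027 and 1028 of 15477), and without both 3 and 0 (1053 and 1012 of 15419). Counts this small say nothing that sets the members apart from the background. With 1 line per genotype, the groups of lines are 3 against 2.

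A score of each list, the mean log2 CPM of its members, was given to every library. The S phase score was 6.90 ± 0.06 (SD, n = 5) in B16F10 luc2, 6.87 ± 0.05 in RET, 6.67 ± 0.24 in HCmel12, 6.59 ± 0.18 in WT31 and 6.45 ± 0.08 in D4M, a range of 0.45, or 1.37-fold, with a pooled SD within lines of 0.14. The G2 and mitosis score was 7.07 ± 0.09 in D4M, 7.003 ± 0.14 in B16F10 luc2, 6.93 ± 0.19 in HCmel12, 6.93 ± 0.04 in RET and 6.73 ± 0.56 in WT31. Its range of 0.34, with a pooled SD of 0.27, became 0.14 without the 2 libraries that stood apart, when WT31 was at 6.97 ± 0.19 (SD, n = 4). The highest line of this score was B16F10 luc2, not D4M, with library size only (range 0.20), log2(TPM + 1) (range 0.14) and the median over members (range 0.36), so the order of these lines depended on the scaling and on how members were averaged. The highest line of the S phase score was RET with library size only (range 0.62), and D4M was lowest in each of these. The second score minus the first was 0.77, 0.62, 0.57, 0.63 and 0.50 in the libraries of D4M, above each of the other 20, of which HCmel12 replicate 4 was next at 0.495 and WT31 replicate 1 at 0.46. With the median in place of the mean over members, D4M (0.76) still had the highest mean difference, but HCmel12 came to 0.67, RET to 0.53 and B16F10 luc2 to 0.52.

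**Figure D4:**
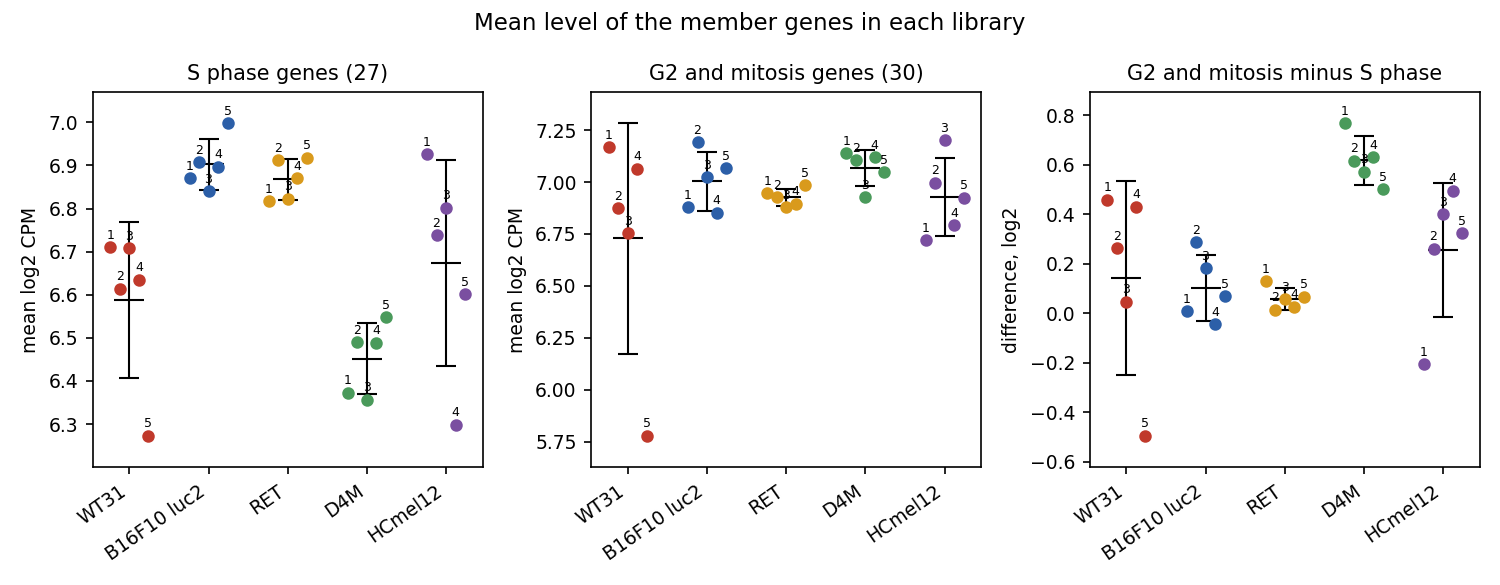
S phase score, G2 and mitosis score (mean log2 CPM of 27 and 30 genes) and their difference in each of 25 libraries, by line; points are numbered by replicate and the black lines are mean and SD. WT31 replicate 5 has the lowest G2 and mitosis score, 5.78, and the 5 D4M libraries have the highest differences.

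Among replicates of a line, the genes of a list moved together. Each gene's deviations from its line means were correlated over 25 libraries, which share culture, depth and scaling. The median r was 0.69 between S phase genes, 0.89 between G2 and mitosis genes and 0.44 across the lists, while over all pairs of tested genes it was 0.00. Without WT31 replicate 5 and HCmel12 replicate 4, over 23 libraries, it was 0.47, 0.68 and -0.05. The deviations of the scores had r = 0.56 (rho = 0.45) over 25 libraries and r = 0.005 (rho = 0.14) over 23 with the line means taken over those 23. The same 23 libraries had r = 0.199 around the line means of all 25. With WT31 replicate 5 alone left out r was 0.198, and it was 0.41 when the points of HCmel12 replicates 1 and 4 were then dropped. With HCmel12 replicate 4 alone left out it was 0.64, so the value depended on which libraries were kept and on how the line means were taken. Of 27 S phase genes, 26 followed the S phase score more closely than the other score, all but Tyms (0.78 against 0.88), and so did 30 of 30 G2 and mitosis genes theirs. For the r with its own score, each gene was left out of that score. These r are over all 25 libraries, with the libraries that stood apart. E2f8 followed its own score least, with r = 0.41.

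**Figure D5:**
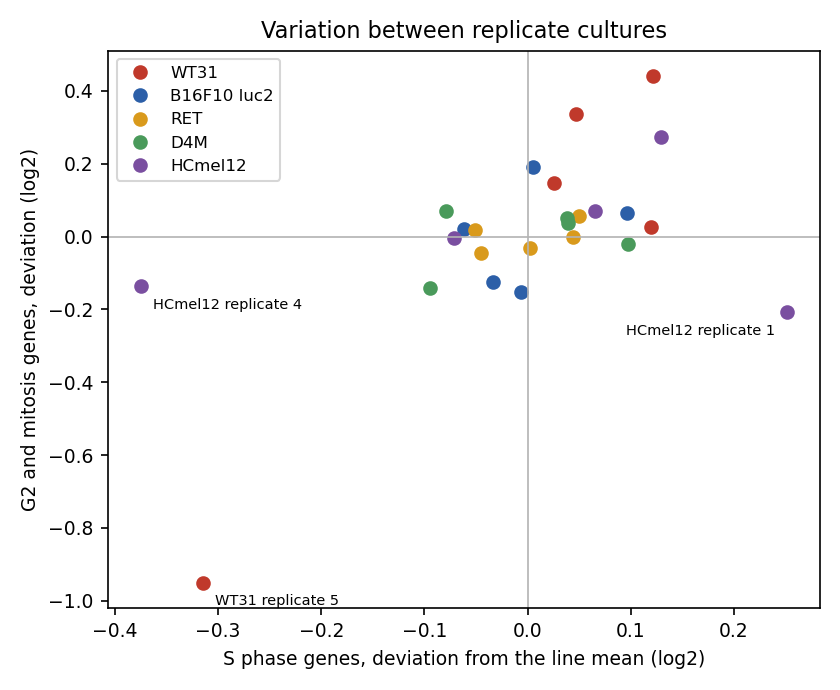
Deviation of the S phase score (x axis) and of the G2 and mitosis score (y axis) from the mean of the line, in log2 CPM, for 25 libraries, coloured by line. WT31 replicate 5 lies low on both axes and HCmel12 replicate 4 mainly on the S phase axis; the other 23 points, as plotted around the means of all libraries of a line, give r = 0.199.

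The spread differed by line. The median SD over the G2 and mitosis genes was 0.56 (log2) in WT31, 0.22 in HCmel12, 0.16 in B16F10 luc2, 0.12 in D4M and 0.09 in RET, and over the S phase genes 0.20, 0.26, 0.09, 0.12 and 0.08 in the same order. Without its replicate 5, WT31 had 0.19 over the G2 and mitosis genes and 0.09 over the S phase genes, and without its replicate 4, HCmel12 had 0.23 and 0.16. Tested genes of like level had medians of 0.09 to 0.14.

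Of the tested genes that are not members, those most like the S phase score in these deviations were Lig1 (r = 0.94 over 25 libraries, 0.82 over 23), the ligase that joins Okazaki fragments, Topbp1 (0.93 and 0.77), Mcm10 (0.92 and 0.83), Exo1 (0.91 and 0.71) and Hat1 (0.91 and 0.82). Those most like the G2 and mitosis score were Racgap1 (0.99 and 0.97), a part of the central spindle, the kinesin Kif20a (0.99 and 0.94), Ect2 (0.98 and 0.94), which activates the furrow's RhoA, Tacc3 (0.98 and 0.95) and the kinetochore protein Nuf2 (0.97 and 0.89).

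A list of 46 other replication genes was counted the same way, with no test of its likeness to the members. For B16F10 luc2 against D4M 36 were higher and 2 lower (median 0.51), for RET against D4M 39 and 1 (median 0.47), for WT31 against B16F10 luc2 4 and 35 (median -0.42), for WT31 against RET 3 and 30 (median -0.34) and for D4M against HCmel12 3 and 28 (median -0.28). For WT31 they were 19 and 11 against D4M (median 0.13) and 7 and 23 against HCmel12 (median -0.21), for B16F10 luc2 9 and 10 against RET (median 0.08) and 22 and 4 against HCmel12 (median 0.20), and for RET 20 and 4 against HCmel12 (median 0.18). Of 50 other mitosis genes, 16 were higher and 7 lower for B16F10 luc2 against D4M (median 0.18), 16 and 8 for RET against D4M (median 0.05) and 5 and 11 for D4M against HCmel12 (median -0.04). For WT31 they were 3 and 19 against B16F10 luc2 (median -0.27), 7 and 20 against RET (median -0.18), 5 and 13 against D4M (median -0.10) and 6 and 16 against HCmel12 (median -0.17). They were 9 and 5 for B16F10 luc2 against RET (median 0.09), 13 and 8 for B16F10 luc2 against HCmel12 (median 0.10) and 8 and 11 for RET against HCmel12 (median 0.01). The backgrounds are those given for the same pairs above. The counts and medians of WT31 here include its replicate 5, which was low in members of both lists. No values without that library are given for these genes.

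The 33 cell cycle regulators hold cyclins, kinases and inhibitors of the entry into S phase and factors of the mitotic wave. Cdkn2a, the locus of the INK4a and ARF inhibitors, held 181, 205, 188, 218 and 221 CPM in HCmel12 and 2.66, 3.23, 2.79, 2.65 and 2.81 in WT31, the line labelled INK4a-/-. It had 0 counts in every library of B16F10 luc2 and RET, where 3 counts would be up to 0.124 CPM, and at most 0.128 CPM in D4M. Its neighbour Cdkn2b, the INK4b inhibitor, was at 37.99, 56.1, 36.8, 45.7 and 32.8 CPM in WT31, 9.07, 10.4, 11.4, 9.98 and 16.03 in HCmel12 and at 0 in all libraries of RET and D4M. Cdk2, the kinase partner of cyclins E and A, was 654 CPM in B16F10 luc2 and 48.9 in D4M as means. The log2 fold change was 3.74 ± 0.10 (SE), adjusted p = 5.42e-21 by limma, in the same direction as most S phase genes. The part of the Cdk2 locus and of the melanocyte level of D4M in this difference was not tested.

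Ccnd1, the cyclin D1 that frees E2F from Rb, ran the other way, with 2383, 2271, 2744, 2397 and 2109.7 CPM in D4M and 1749.6, 1959, 1698, 1807 and 1509 in WT31, but 325, 371, 344, 384 and 370.1 in B16F10 luc2 and 207, 241, 308, 222 and 222 in RET. RET minus D4M was -3.32 ± 0.15 (SE), adjusted p = 5.1e-17. Ccnd2, the cyclin D2, was low in WT31 and D4M (191 and 187 CPM as means) next to B16F10 luc2 and RET (668 and 877), and lowest in HCmel12 (43.6). B16F10 luc2 minus D4M was 1.84 ± 0.10 (SE), adjusted p = 5.96e-15 for Ccnd2. Cdk4, their kinase, lay between 559 and 635 CPM as line means. Foxm1, the activator of the mitotic wave, was 374, 370.2, 352, 358 and 345 CPM in RET and 213, 171, 162, 182 and 83.9 in WT31, the last value again that of replicate 5. For RET against D4M 13 of 33 regulators were higher and 11 lower (39.4% and 33.3%, next to 38.8% and 38.3% of all tested genes), and for B16F10 luc2 against D4M 18 and 10 (54.5% and 30.3%, next to 38.8% and 38.9%).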

How the data were processed

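RNA-seq was made by the authors from 25 cultures of 5 melanoma lines. Per the submitters' processing notes, reads were trimmed with Trim Galore 0.6.4 and quantified with kallisto 0.4.6 on GRCm38. The deposited values are estimated counts per gene, of which 24.5% to 26.6% per library were not whole, and TPM, which the authors' quantification scales by length and depth (D4M replicate 1 entered no TPM value). The annotation release and the step from transcripts to genes are not given in the sources used here, and the library platform is named differently in the labels and the methods. All 57 identifiers matched GENCODE M21 with their version.

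Estimated counts, not rounded, were filtered (filterByExpr by line, 15247 of 55385 genes) and scaled by TMM with edgeR 4.0.16. They were then transformed by voom and fitted with limma 3.58.1 in R 4.3.3, with 1 mean per line over all 25 libraries. The 10 pairs of lines were tested with Benjamini-Hochberg adjustment over all tested genes and a threshold of 0.05. All p-values come from this fit. Nothing says whether replicates came from separate thaws, so p-values measure the spread between these cultures. Library totals of 24199083 to 25843286 limit counting error only. On simulated counts for RET against D4M (13297 genes), 200 of 200 genes changed 2-fold were recovered.

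The members and the gene lists were chosen with earlier results of these data known. Named genes were 23 fixed members, the 4 with the largest and the 2 with the smallest range in each list, any cell cycle regulator and the 5 other genes most like each score. Alternatives were DESeq2 1.42.0, edgeR's quasi-likelihood test, other scalings, filters and thresholds, TPM with pseudocounts of 1 and 0.1, a replicate block, fits of 2 lines and leaving out libraries.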

Additional observations from a re-analysis of the deposited data

Results flagged for a closer look

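In 160 groups of 5 libraries (the scores and the named members in each line), the highest or lowest library was looked at for a gap over 0.71 of the group's range (Dixon's limit). By chance about 1 in 20 groups would show one, and 17 did.

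WT31 replicate 5 gave 9 of them, each as the lowest library: the S phase score at 6.27 (6.61 to 6.71 in the other 4 libraries), Mcm5 at 175 CPM (222 to 239), Mcm7 at 163 (203 to 219), Rrm2 at 175 (258 to 284), Tyms at 47.8 (79.5 to 86.5), Gmnn at 16.8 (22.03 to 23.5), Cdk1 at 101 (178 to 207), Aurka at 77.3 (144 to 168) and Aurkb at 59.5 (109 to 129). This library was low in genes of both lists.

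E2f8 was lowest in WT31 replicate 1, at 149 CPM (202 to 208). It was highest in RET replicate 2, at 81.6 CPM (58.6 to 63.4).

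HCmel12 replicate 3 was highest for Top2a, at 691 CPM (450.2 to 476), and for Mki67, at 396 (284 to 294). Mki67 was also highest in D4M replicate 5, at 423 CPM (341 to 364). Cdca3 was lowest in HCmel12 replicate 1, at 124 CPM (159 to 167). Mcm2 was lowest in RET replicate 3, at 548 CPM (587 to 603), and Mcm7 highest in B16F10 luc2 replicate 4, at 233 CPM (215 to 217.5).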

How the results depend on the processing

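Of 1073 values of the 29 named members under the alternatives, 1034 kept their direction and side of the threshold, 29 no longer passed it, 10 came to pass it and 0 turned direction. With a log2 fold change of at least 1 asked for as well, the S phase members called, in the order WT31 against B16F10 luc2, RET, D4M and HCmel12, B16F10 luc2 against RET, D4M and HCmel12, RET against D4M and HCmel12, and D4M against HCmel12, were 6, 4, 0, 2, 2, 9, 4, 5, 4 and 2, and the G2 and mitosis members 0, 1, 1, 1, 0, 1, 1, 3, 1 and 3. At an adjusted p under 0.01, the G2 and mitosis members called were 4 for WT31 against HCmel12, 0 and 6 for B16F10 luc2 against RET and HCmel12, and 5 for RET against HCmel12. With that fold change asked for, 4794, 4754, 5593, 4576, 2175, 6069, 4289, 5975, 4049 and 5404 of all 15247 genes were called, in the order of pairs above. No share of all genes stands beside the counts at an adjusted p under 0.01, so those say nothing that sets the members apart.

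With library size only, the median of the S phase members was 0.38 for WT31, 0.62 for B16F10 luc2 and 0.59 for RET against D4M, and -0.42 for D4M against HCmel12, shifted with all genes. On the TPM scale it was 0.30 with either pseudocount for WT31 against D4M and, with 0.1, 0.61 for B16F10 luc2 against D4M. S phase calls for WT31 against HCmel12 were then 9 with either pseudocount. G2 and mitosis calls on that scale were 7 for WT31 against RET, 9 against D4M (median -0.042 with 1 and -0.046 with 0.1) and 5 against HCmel12. WT31 against HCmel12 had 4 with library size only, 4 with the quasi-likelihood test and 5 with no filter. DESeq2's Wald test called 5 for B16F10 luc2 against RET. The cause of these moves was not tested. Of all 15247 genes, log2(TPM + 1) called 10549 for WT31 against RET, 11043 against D4M and 10190 against HCmel12. For the last pair, library size only called 10742, the quasi-likelihood test 10698 of 15258 and no filter 12504 of 34125. The Wald test called 7921 of all genes for B16F10 luc2 against RET.

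Fitted with only the 2 lines compared, G2 and mitosis calls were 4 for WT31 against HCmel12, 16 for B16F10 luc2 against RET, 22 and 18 for RET against D4M and HCmel12, and 16 for D4M against HCmel12. Of all genes, these fits called 9574 of 13597, 8238 of 13067, 11256 of 13880, 9511 of 13456 and 10048 of 13844, in the same order. Without both WT31 replicate 5 and HCmel12 replicate 4 (added after seeing the data) G2 and mitosis calls were 12 for B16F10 luc2 against RET, 19 and 16 for RET against D4M and HCmel12, and 16 for D4M against HCmel12. Of all 15419 genes in that fit, 8420, 12159, 10511 and 11252 were called, in the same order. With each library left out in turn, G2 and mitosis calls ran from 4 to 14 for WT31 against HCmel12, 1 to 11 for B16F10 luc2 against RET, 7 to 15 for B16F10 luc2 against HCmel12, 10 to 19 for RET against D4M, 8 to 19 for RET against HCmel12 and 8 to 17 for D4M against HCmel12. WT31 against HCmel12 had 14 without WT31 replicate 1, where 10603 of all 15473 genes were called.

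Members commonly higher in HIM-melanoma were 1 (without HCmel12 replicate 4) to 4 (without WT31 replicate 5) with a library left out, and 1 at an adjusted p under 0.01. Those commonly lower were 0 to 1, and 1 with DESeq2's size factors. The second score minus the first was 0.012 in RET on the log2(TPM + 1) scale, and with the median over members 0.52 in B16F10 luc2, 0.53 in RET, 0.76 in D4M and 0.67 in HCmel12. The correlation of the scores' deviations was 0.005 without both libraries and 0.20 to 0.73 with 1 left out.

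The replicate numbers did not pair the samples: over 50 pairs of libraries with the same number, r of the deviations ran from -0.09 to 0.10, and 7 of 25 libraries were closest to their own number. With the number as a block, no call count moved past 1.5 times; for B16F10 luc2 against D4M, 21 S phase members were called both without and with it.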
